A study of Homo sapiens with 8 samples.

Results

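Among the 61806 genes measured in N/TERT cells, 9 were examined as type I interferon targets: the transcription factor IRF1 and the effectors IFIT1, IFIT2, IFIT3, OAS1, OAS3, MX1, ISG15 and IFI6. They were chosen by gene symbol from a list of names, and 9 of 9 were found and had enough counts to be tested. The cells were wild-type N/TERT-1, epidermal keratinocytes of human origin that were immortalized and grow as a line. Of 8 mRNA libraries, 4 came from cultures given ethanol alone (the solvent control) and 4 from cultures given O/A, all labeled as biological replicates. O/A combines oligomycin, an inhibitor of the mitochondrial ATP synthase, with antimycin A, an inhibitor of complex III of the respiratory chain, and the study's text gives a treatment of 4 hours, which the labels do not state. Both conditions are the same single cell line, without other cell types or the tissue around them.

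Interferons are secreted proteins that cells release when receptors inside them meet foreign nucleic acid, or their own nucleic acid in the wrong compartment, including DNA or RNA that leaks from damaged mitochondria. Type I interferon binds the receptor pair IFNAR1 and IFNAR2, whose kinases activate signal transducers, among them STAT2. STAT2 and IRF9 are parts of a complex that binds the interferon-stimulated response element (ISRE) in the promoters of target genes. Interferon-gamma acts at the gamma-activated site (GAS), and IRF1 is a classical target of that route. IRF1 and IRF3 also recognize ISRE-like sequences, so part of the interferon-stimulated genes can be transcribed without interferon.

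The motifs that carry this regulation were searched in RefSeq promoters of GRCh38.p14, from 250 bases before to 50 bases after the transcription start, on both strands. The ISRE core was taken as GAAA, any 2 bases and GAAA again, which reads TTTC, any 2 bases and TTTC on the other strand, and the GAS core as TTCNNNGAA, which reads the same on both. Of the 9 genes, 8 were matched to 11 promoters (IFIT2 was not). The stretches below, with the match in capitals and its neighbors in lower case, show the elements that IFIT1, IFIT3, ISG15, IFI6, OAS3 and MX1 share and the GAS of IRF1. They are given 5′ to 3′ on the strand of the gene, at chr10:89392497-89392539 (+) for IFIT1, chr10:89327865-89327894 (+) and chr10:89332468-89332497 (+) for the first and second promoter of IFIT3, chr1:1013374-1013409 (+) for ISG15, chr1:27672266-27672317 (-) for IFI6, chr12:112938321-112938350 (+) for OAS3, chr21:41431844-41431873 (+) for the third promoter of MX1 and chr5:132490879-132490907 (-) for IRF1.
IFIT1: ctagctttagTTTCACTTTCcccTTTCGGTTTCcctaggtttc
IFIT3, first promoter: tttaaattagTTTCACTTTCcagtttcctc
IFIT3, second promoter: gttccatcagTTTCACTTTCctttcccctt
ISG15: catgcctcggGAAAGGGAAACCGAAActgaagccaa
IFI6: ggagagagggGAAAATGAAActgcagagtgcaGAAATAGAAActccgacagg
OAS3: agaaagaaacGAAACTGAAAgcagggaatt
MX1: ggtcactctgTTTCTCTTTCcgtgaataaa
IRF1, GAS: acagcctgatTTCCCCGAAatgacggcac

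An ISRE core lay in 8 of the 11 promoters (72.7%), belonging to 6 of the 8 genes, against 3.57% of all 35116 promoters. In the promoters of other interferon-stimulated genes, listed further below, it lay in 28 of 50 (56%). IRF1 and OAS1 had no ISRE core in this window, and each held a GAS core, as did the third promoter of MX1, where the GAS overlaps the ISRE. The GAS core was found in 3 of the 11 promoters (27.3%), in 12 of 50 (24%) of the other interferon-stimulated genes and in 7.66% of all promoters. In ISG15 both matches share bases, and in IFIT1 they stand side by side. The first promoter of MX1 also held an ISRE core, at 11 to 20 bases after the transcription start. That match and further ISRE cores of IFI6, IFIT3 and OAS3 are not printed above. All matches are letters in a reference sequence and no binding was measured here.

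The first question was at what level the genes were expressed at rest. FPKM, a count scaled to exonic length and library total, allows genes to be compared. In ethanol IFI6, a small membrane protein, had the highest FPKM at 31.5 ± 4.45 (SD, n = 4), followed by ISG15, a ubiquitin-like modifier, at 15.5 ± 1.93. IFIT1 (9.7 ± 1.61) and IFIT3 (9.42 ± 1.41) came next and lay within each other's spread. OAS3 followed at an FPKM of 6.89 ± 0.247. MX1 (4.78 ± 0.562) and IFIT2 (4.34 ± 0.628) again did not differ beyond their spread, and IRF1 (2.57 ± 0.092) and OAS1 (2.14 ± 0.226) had the lowest FPKM. Every ethanol library held counts of every one of the 9 genes, with 217 or more for ISG15, the gene with the fewest. The exonic lengths behind these values run from 867 bases for ISG15 to 18045 bases for OAS3 and sum all annotated exons, so the FPKM of a gene with many alternative exons is lowered.

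In O/A the order of the FPKM levels changed. IFI6 (26.3 ± 6.19) and ISG15 (15.2 ± 2.27) remained the highest. OAS3 (5.76 ± 0.827) now stood above IFIT1 (4.11 ± 1.33), IFIT3 (3.89 ± 0.913) and MX1 (3.75 ± 1.11), where IFIT1, IFIT3 and MX1 lay within each other's spread and the ranges of mean ± SD of OAS3 and IFIT1 overlapped. IFIT2 (1.85 ± 0.382), OAS1 (1.73 ± 0.353) and IRF1 (1.42 ± 0.152) were the lowest, with overlapping ranges of mean ± SD between neighbors.

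**Figure D1:**
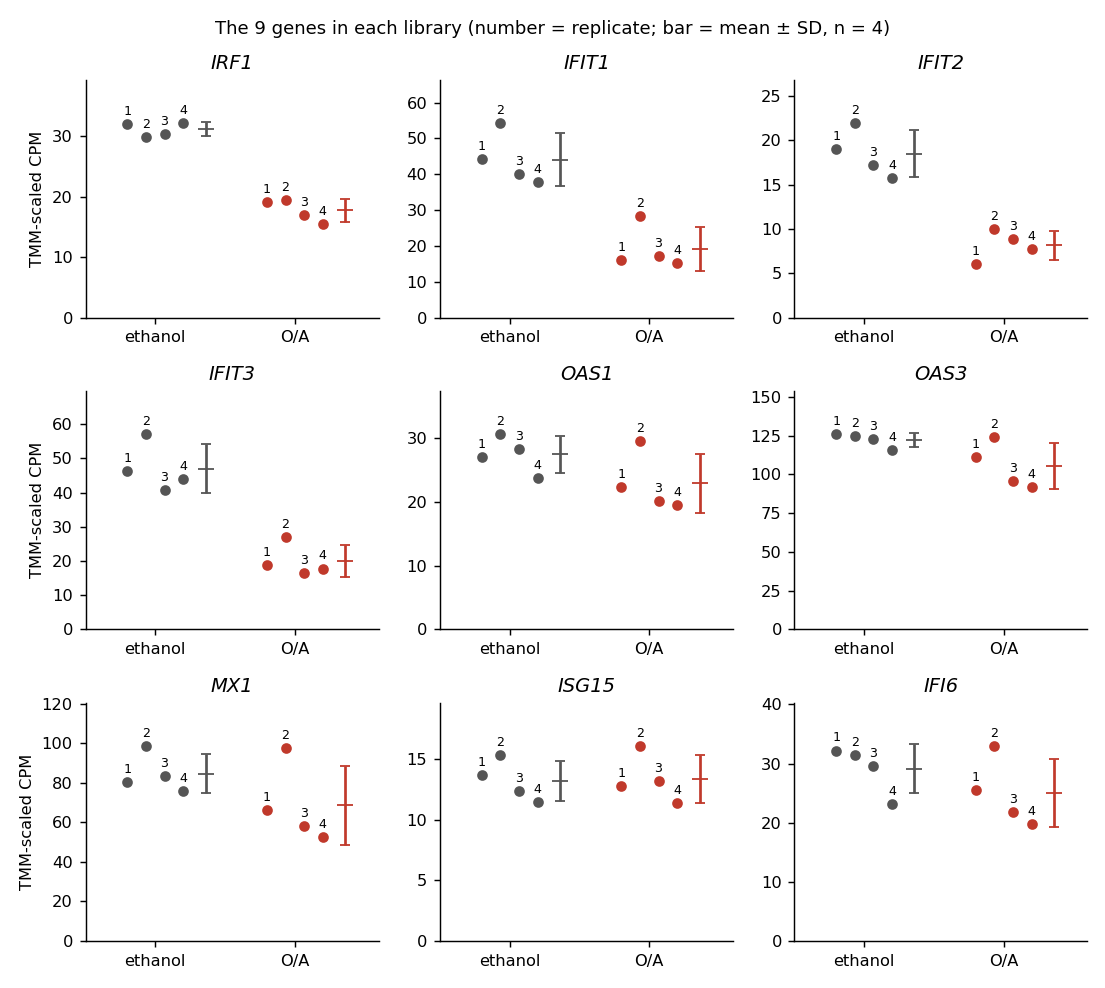
TMM-scaled CPM (vertical axes, linear from 0) of the 9 genes in the 4 ethanol and 4 O/A libraries, with each point numbered by replicate and the mean and SD beside it. The O/A points of IRF1, IFIT1, IFIT2 and IFIT3 lie below every ethanol point, those of the other 5 genes overlap the ethanol points, and O/A replicate 2 is the highest O/A point in every panel.

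O/A was then compared with ethanol on the counts, scaled by edgeR's TMM method and given as CPM, the count after scaling all libraries to a common total. IRF1, IFIT1, IFIT2 and IFIT3 were downregulated, none of the 9 genes was upregulated, and OAS1, OAS3, MX1, ISG15 and IFI6 did not pass the test. A gene was called when its adjusted p-value in edgeR's quasi-likelihood test was at most 0.05 over the 14893 genes tested and its absolute log2(FC) was above 0.25. In all, 34.7% of the genes tested were called in either direction, 18.9% as downregulated and 15.8% as upregulated. Against this background 4 of the 9 genes (44.4%) were downregulated and 0 upregulated. The median log2(FC) of the 9 genes was -0.30, and that of all genes tested was -0.00. Every O/A library was below every ethanol library for the same 4 genes, while 47.6% of all genes tested were separated in this way in either direction and 24.8% with O/A below.

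IRF1, the transcription factor of the group, had 31.9, 29.8, 30.4 and 32.2 CPM in ethanol replicates 1 to 4 and 19.1, 19.4, 16.9 and 15.5 CPM in O/A replicates 1 to 4. The conditions did not overlap, and the ethanol libraries were close to each other, with an SD of 0.05 on the log2 scale. The log2(FC) was -0.81 (95% CI -0.94 to -0.68, edgeR adjusted p = 4.36e-16), a change of -43%. Among the 14893 genes tested, 662 (4.45%) had a log2(FC) as low or lower. IRF1 spans 132440440 to 132508719 on chromosome 5 of GRCh38 (minus strand) and was counted 531 to 685 times per ethanol library and 270 to 360 times per O/A library. An antisense gene, IRF1-AS1, covers part of its exons, and 22.9% of the exonic bases of IRF1 lie in exons of other genes. The counts of IRF1-AS1 came to 7.95% of those of IRF1, and since it is not stated whether counting used strand, reads from the shared exons cannot be assigned to either strand.

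The IFIT genes encode tetratricopeptide proteins that bind viral RNA or the translation machinery, and they lie in a row on the plus strand of chromosome 10. IFIT1, which recognizes RNA that lacks the methylated cap of the cell's own mRNA, had 44.2, 54.4, 40.1 and 37.8 CPM in the ethanol replicates and 16.2, 28.4, 17.3 and 15.2 CPM in the O/A replicates. Replicate 2 was the highest library in both conditions, and the conditions did not overlap. The log2(FC) of IFIT1 was -1.19 (95% CI -1.74 to -0.63, edgeR adjusted p = 0.00432), the widest interval among the 3 IFIT genes.

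IFIT2, which binds AU-rich RNA, had 19, 22, 17.2 and 15.8 CPM in the ethanol replicates and 6.04, 9.97, 8.84 and 7.76 CPM in the O/A replicates. Here O/A replicate 1 was the lowest of the O/A libraries, and again no O/A value reached an ethanol value. Its log2(FC) was -1.17 (95% CI -1.49 to -0.85, edgeR adjusted p = 3.01e-05). IFIT3, which stabilizes IFIT1, had 46.2, 57.1, 40.8 and 44 CPM in the ethanol replicates and 18.9, 26.9, 16.6 and 17.8 CPM in the O/A replicates. Replicate 2 was the highest library in both conditions, as for IFIT1 and IFIT2, and replicate 3 was the lowest in both. The log2(FC) of IFIT3 was -1.23 (95% CI -1.67 to -0.79, edgeR adjusted p = 0.00113), a change of -57.3%, and 224 genes (1.5%) had a log2(FC) as low or lower.

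The exact permutation test of the difference in mean log2 CPM, 2-sided, gave p = 0.0286 for IRF1, IFIT1, IFIT2 and IFIT3 alike, which is the smallest value that 4 libraries against 4 allow. IFIT2 runs from 89283694 to 89309271 on chromosome 10, IFIT3 from 89327307 to 89377473 and IFIT1 from 89392546 to 89406487. The counts per library were 302 to 393 for IFIT2 in ethanol and 105 to 185 in O/A, against 704 to 970 and 264 to 528 for IFIT1 and 717 to 1019 and 309 to 499 for IFIT3.

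The locus of the IFIT genes holds further genes whose values were compared. LIPA, a lysosomal acid lipase gene on the opposite strand, spans all 3 and had 3633 to 4482 counts per library with a log2(FC) of -0.03 (edgeR adjusted p = 0.435). No exonic base of IFIT1 lies in an exon of another gene, and exons of LIPA cover 65 exonic bases of IFIT2 and 94 of IFIT3 in GENCODE v44. In all, 589 exonic bases of IFIT2 (13.6%) lie in exons of other genes. Of these, 524 lie in an unnamed gene on the same strand, which had at most 1 count in any library. IFIT5, the next member of the family on the same strand, had a log2(FC) of -1.12 (standard error 0.06, edgeR adjusted p = 3.44e-22). IFIT1B, between IFIT3 and IFIT1, had at most 3 counts in any library. Of the neighbors outside the family, PANK1 and KIF20B were downregulated with a log2(FC) of -1.45 and -0.72, and FAS was upregulated with 0.36. SLC16A12 (log2(FC) 0.50, edgeR adjusted p = 0.073) and ACTA2 (0.21, edgeR adjusted p = 0.0731) were not called.

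The oligoadenylate synthetases make the second messenger that activates RNase L when double-stranded RNA is present. OAS1 had 27.0, 30.6, 28.3 and 23.8 CPM in the ethanol replicates and 22.3, 29.6, 20.2 and 19.5 CPM in the O/A replicates. The O/A value of replicate 2 was above 3 of the 4 ethanol values, and the log2(FC) was -0.25 (95% CI -0.62 to 0.11, edgeR adjusted p = 0.215). Without O/A replicate 2 the log2(FC) of OAS1 was -0.40 (adjusted p = 1.75e-05), past both thresholds.

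OAS3, the largest of the synthetases, had 126, 125, 123 and 116 CPM in the ethanol replicates and 111, 124, 95.7 and 91.9 CPM in the O/A replicates. In O/A, replicates 1, 3 and 4 were below every ethanol library and replicate 2 was among the ethanol libraries, and the log2(FC) was -0.21 (95% CI -0.46 to 0.03, edgeR adjusted p = 0.126). Without O/A replicate 2 it was -0.29 (adjusted p = 0.000325). OAS1 and OAS3 lie next to each other on chromosome 12, from 112905856 to 112933219 and from 112938051 to 112976460.

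MX1 encodes a dynamin-like GTPase that traps viral nucleoproteins, on chromosome 21 from 41420020 to 41470071. It had 80.7, 98.8, 83.5 and 75.7 CPM in the ethanol replicates and 66.3, 97.5, 58.0 and 52.5 CPM in the O/A replicates. As for OAS3, O/A replicate 2 lay among the ethanol libraries and the other 3 O/A libraries lay below all of them. The log2(FC) was -0.30 (95% CI -0.81 to 0.21, edgeR adjusted p = 0.285), and -0.51 without O/A replicate 2 (adjusted p = 0.0193). OAS1, OAS3 and MX1 were each called when O/A replicate 2 was left out, and none of the 3 was called when any other library was left out.

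ISG15, which is conjugated to other proteins like ubiquitin, had 13.7, 15.3, 12.4 and 11.5 CPM in the ethanol replicates and 12.8, 16.1, 13.2 and 11.4 CPM in the O/A replicates. The ranges coincided, and the log2(FC) was 0.03 (95% CI -0.17 to 0.22, edgeR adjusted p = 0.843). The interval lies within the threshold of 0.25 on either side, the only such interval among the 9 genes. IFI6 had 32.2, 31.5, 29.6 and 23.1 CPM in the ethanol replicates and 25.5, 33.0, 21.8 and 19.8 CPM in the O/A replicates. The conditions overlapped and O/A replicate 2 was the highest of all 8 libraries, with a log2(FC) of -0.21 (95% CI -0.67 to 0.25, edgeR adjusted p = 0.409). Without O/A replicate 2 the log2(FC) of IFI6 was -0.365 (edgeR adjusted p = 0.0807) and without O/A replicate 4 it was -0.114 (edgeR adjusted p = 0.67), not called in either case. By the exact permutation test, 2-sided, p was 0.143 for OAS1, 0.0857 for OAS3, 0.171 for MX1, 0.943 for ISG15 and 0.286 for IFI6. ISG15 lies on chromosome 1 from 1001138 to 1014540 and IFI6 on the same chromosome from 27666064 to 27672212 (minus strand), where 23.1% of its exonic bases also belong to LINC02574, whose counts came to 0.879% of those of IFI6.

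**Figure D2:**
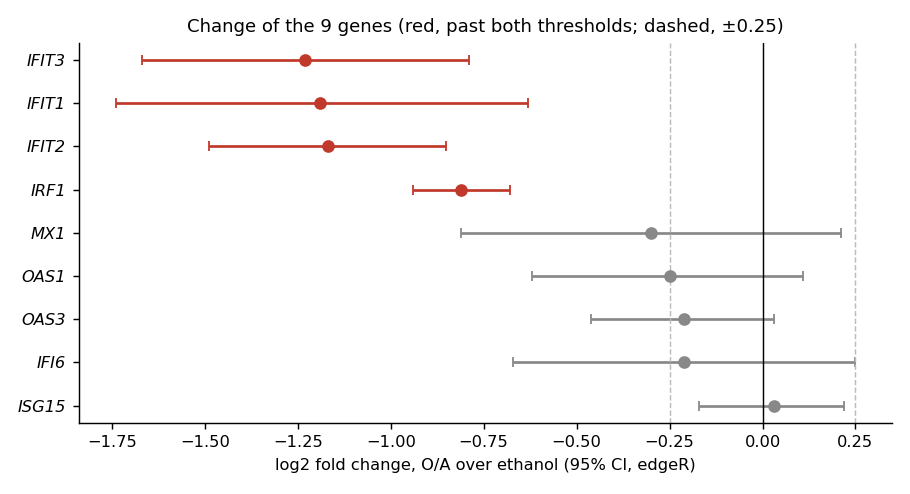
The log2 fold change of each gene (horizontal axis, O/A over ethanol, from edgeR) with its 95% confidence interval. The intervals of IFIT3, IFIT1, IFIT2 and IRF1 (red) end at -0.63 or lower, and those of the other 5 genes (gray) include 0.

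The genes were also set against each other within libraries. The count ratio of 2 genes in the same library needs no scaling, and the log2 ratio is given for all 36 pairs as a description, since the split into downregulated and other genes comes from the same 8 libraries and pairs share genes. For all 20 pairs of a downregulated gene with one of OAS1, OAS3, MX1, ISG15 and IFI6 the 4 O/A ratios lay below the 4 ethanol ratios. The log2 ratio of IFIT3 to ISG15 went from 1.83 ± 0.10 in ethanol to 0.57 ± 0.17 in O/A (SD, n = 4), the largest of these changes at -1.26. The smallest was that of IRF1 to MX1, with -0.48.

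Among the 6 pairs of downregulated genes no ratio was separated between conditions. The log2 ratio of IFIT1 to IFIT3 was -0.10 ± 0.09 in ethanol and -0.08 ± 0.17 in O/A, a change of 0.02. The log2 ratio of IRF1 to the IFIT genes changed by 0.38 to 0.43 in value. These ratios overlapped between the conditions. Of the 10 pairs within the other 5 genes, the ratio of OAS1 to ISG15 was the 1 that was separated, with a change of -0.29.

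**Figure D3:**
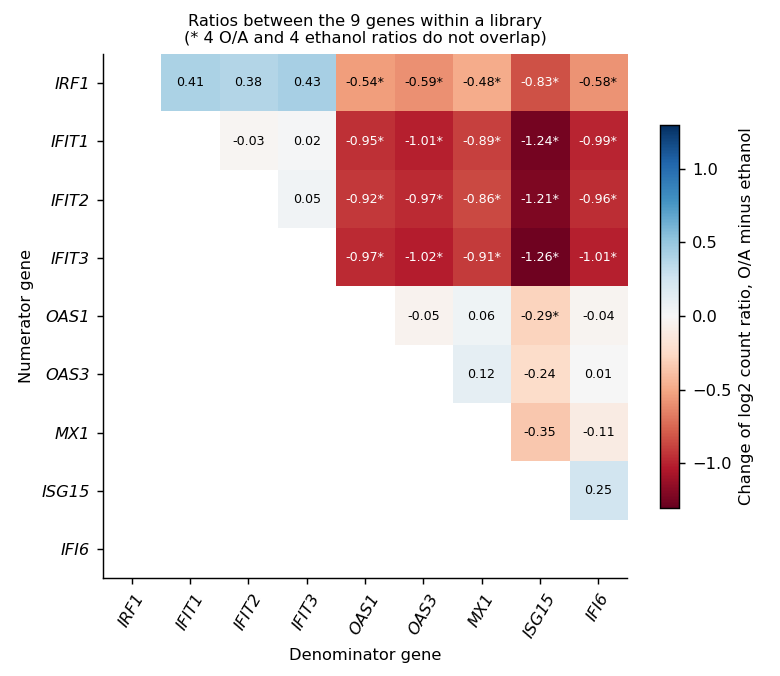
Change of the log2 count ratio of 2 genes between conditions (O/A minus ethanol, color and printed value), with the numerator gene on the vertical axis and the denominator gene on the horizontal axis. Asterisks mark the 21 of 36 pairs whose O/A and ethanol ratios do not overlap, and 20 of these pair a downregulated gene with one of the other 5.

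The O/A libraries differed more in each of these genes than in the median gene. The SD of log2 CPM among the O/A libraries was 0.15 for IRF1, 0.20 for OAS3, 0.39 for MX1 and 0.41 for IFIT1, whereas its median was 0.09 over all genes tested and 0.07 over genes with a mean log2 CPM of 3 to 7. In ethanol the SD was 0.05 for IRF1 and OAS3, below the median of 0.08 over all genes, and 0.15 to 0.23 for the other 7 genes. O/A replicate 2 was the highest O/A library for 9 of the 9 genes, and for 23.7% of all genes tested. Relative to the mean of the O/A libraries it was higher by 0.61 on the log2 scale in IFIT1, 0.55 in MX1 and 0.14 in IRF1. In ethanol, replicate 2 was the highest library for 6 of the 9 genes and for 22.9% of all genes. Replicate 4 was the lowest library for 7 of the 9 genes in each condition.

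With the mean of each condition subtracted, the genes departed together in the 8 libraries. The correlation of these departures had a median of 0.87 over the 28 pairs without IRF1, with a range of 0.26 to 0.98, and a median of 0.48 over the 8 pairs with IRF1, where it ran from -0.15 to 0.82. The points share their library and its depth, so these values describe the 8 libraries only. The 5 genes whose departures correlated best with the mean departure of the 9 genes were PLSCR1, a phospholipid scramblase induced by interferon (0.99), OAS2, the third oligoadenylate synthetase (0.98), the nucleotidase gene NT5C3A (0.98), the mitochondrial ribosomal protein gene MRPL42 (0.96) and the transcriptional repressor gene TGIF2 (0.96). They are the highest values among all the other genes tested, 14893 with the 9, and how high such values reach by chance was not tested. Of the 20 best, 6 were in the interferon lists described below. Those lists hold 45 other interferon-stimulated genes and 77 pathway genes among the 14893 tested.

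**Figure D4:**
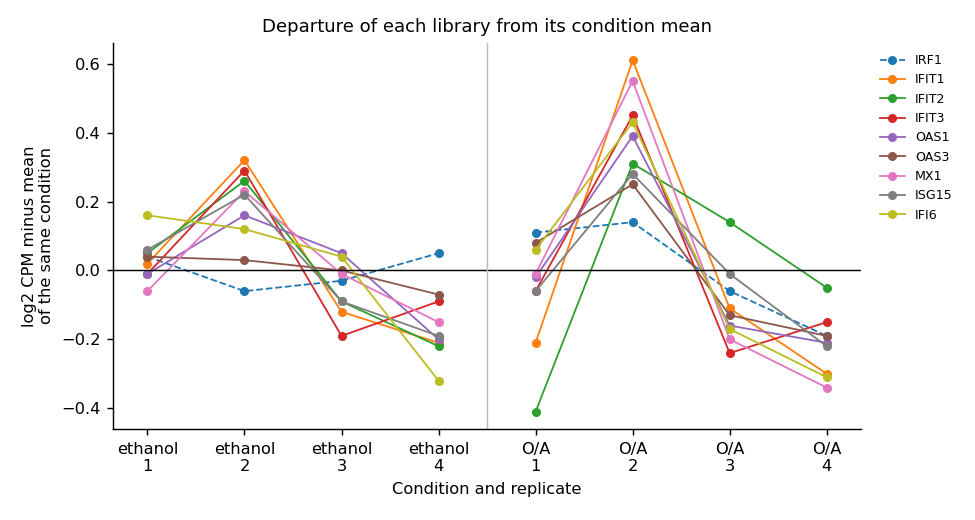
Departure of the log2 CPM of each gene from the mean of its own condition (vertical axis) in the 8 libraries, with IRF1 dashed. O/A replicate 2 stands above 0 for every gene, from 0.14 in IRF1 to 0.61 in IFIT1, and ethanol replicate 2 stands above 0 for every gene but IRF1.

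Other interferon-stimulated genes were examined to see whether they moved like these 9. Of 46 such genes 45 were tested, and 8 (17.8%) were downregulated and 4 (8.89%) upregulated, against 18.9% and 15.8% of all genes. Their median log2(FC) was -0.06. After IFIT5, the largest falls were those of PARP9, an ADP-ribosyltransferase family member (log2(FC) -0.80), PML, the organizer of nuclear bodies (-0.48), and TRIM21, an intracellular antibody receptor (-0.44). Upregulated were the chemokine gene CXCL10 (0.86, with 13 to 17 reads in the ethanol libraries and 16 to 36 in those of O/A), IFITM1 (0.45), the exonuclease gene ISG20 (0.42) and the DNA sensor gene IFI16 (0.42). IFITM1 was close to the limit (edgeR adjusted p = 0.0481). It had 54, 46, 45 and 40 reads in the ethanol replicates and 44, 94, 54 and 52 in the O/A replicates. Within this list, too, replicate 2 was the highest library for 26 of 45 genes in ethanol and 32 of 45 in O/A. Without O/A replicate 2, 13 of the 45 genes were downregulated and 3 upregulated, where 5040 of all 14893 genes tested were called in either direction. The share of all genes in each direction was not worked out for that fit.

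Genes induced by interferon-gamma through IRF1, most of which serve antigen presentation, were examined next. Of 21 such genes 16 were tested, 2 (12.5%) were downregulated and 1 (6.25%) was upregulated, against 18.9% and 15.8% of all genes, and the median log2(FC) was 0.07. GBP1, a guanylate-binding GTPase gene, had a log2(FC) of -0.60 (95% CI -0.71 to -0.49, edgeR adjusted p = 3.35e-13). NLRC5, the activator of MHC class I genes, was downregulated with a log2(FC) of -0.31, and HLA-E, a class I gene, was upregulated with 0.31.

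Upstream of the 9 genes, the interferon ligands were near the limit of detection. Of 16 interferon genes 7 had a count of 0 in every library and 14 never exceeded 10 counts, and 3 counts, the limit that a count of 0 allows, correspond to 0.143 to 0.174 CPM per library. IFNB1, which encodes interferon-beta, had 1, 0, 0 and 0 counts in the ethanol replicates and 6, 0, 1 and 4 in the O/A replicates. Summed over libraries this is 1 against 11 counts, a ratio of 11.1 per library total with an exact 95% interval of 1.61 to 478 that covers counting error only. O/A replicate 2, the highest of the O/A libraries for the 9 genes, held 0 of these counts. Whether counts this low go with the level of the 9 genes was not tested. The 2 ligand genes that could be tested were the epithelial interferons IFNE, with a log2(FC) of -0.51 (adjusted p = 0.0575), and IFNK, with 0.22 (adjusted p = 0.595), neither of which passed the test. Of the lambda interferons, IFNL1 had 1 count in a single O/A library, and IFNL2 and IFNL3 had 2 and 4 counts over the ethanol libraries and 0 in O/A.

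Of the nucleic acid sensors and adaptors, 11 of 14 were tested, 3 (27.3%) were downregulated and 1 (9.09%) was upregulated, against 18.9% and 15.8% of all genes, with a median log2(FC) of -0.16. DHX58, a regulator of RIG-I-like receptors, had a log2(FC) of -0.41, the endosomal RNA receptor gene TLR3 -0.36 and its adaptor gene TICAM1 -0.25. CGAS, the cytosolic DNA sensor gene, was upregulated (0.38). The log2(FC) of TBK1, the kinase that activates IRF3, was 0.23, within the threshold (adjusted p = 8.7e-06).

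All 16 receptor and signal transducer genes were tested, and 4 (25%) were upregulated and 2 (12.5%) downregulated, against 15.8% and 18.9% of all genes, with a median log2(FC) of 0.05. Of the complex that binds the ISRE, STAT2 (0.38, adjusted p = 0.00093) and IRF9 (0.33, adjusted p = 0.000555) were upregulated by edgeR's quasi-likelihood test. IRF7, the factor that amplifies interferon production, was upregulated (0.53), as was the interferon-gamma receptor chain gene IFNGR1 (0.75). The repressor gene IRF2, which competes with IRF1 for its sites, was downregulated (-0.66). Of the type I receptor genes, IFNAR2 was downregulated at the threshold (-0.25, adjusted p = 0.0437), and IFNAR1 (-0.02, adjusted p = 0.653) and IRF3 (0.02, adjusted p = 0.751) were not called.

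Of 16 genes that act as brakes of interferon signaling, 5 (31.2%) were upregulated and 4 (25%) downregulated, against 15.8% and 18.9% of all genes, with a median log2(FC) of 0.16. SOCS3, an inhibitor of JAK kinases, had 5.49 to 7.18 CPM in ethanol and 17 to 19.3 CPM in O/A, with a log2(FC) of 1.47 (95% CI 1.29 to 1.65, edgeR adjusted p = 2.46e-20). The phosphatase gene DUSP1 (1.45), SOCS1 (0.80, with at most 17 counts in any library) and TNFAIP3 (0.38), a brake on NF-κB, were also upregulated. NLRX1, a mitochondrial inhibitor of MAVS, was downregulated (-0.80), as were IRF2BP1 (-0.40), PIAS1 (-0.31) and TRIM27 (-0.25). USP18, itself an interferon-stimulated gene that blocks the type I receptor, had a log2(FC) of 0.21 (adjusted p = 0.0855). Of 17 genes grouped as restraint of self nucleic acids 16 were tested. This list also holds BAX, BAK1, VDAC1 and VDAC2, mitochondrial outer-membrane pore genes that are not restraints. In it 1 gene (6.25%) was upregulated and 1 (6.25%) downregulated, against 15.8% and 18.9% of all genes, with a median log2(FC) of -0.05. DNASE2, a lysosomal DNase gene, was upregulated (0.42) and LSM11, a factor of histone mRNA processing, downregulated (-0.60).

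The libraries were checked for depth and for other cell types. Total counts ran from 17210404 to 20999927 in ethanol and from 17689760 to 19263046 in O/A, and no library was a copy of another, since counts within a condition gave 1.76 to 5.74 as chi-square per degree of freedom, where sampling noise alone gives 1 (11727 genes). Of the keratinocyte markers, 6 of 6 were detected, with a summed level of 10340 to 11043 CPM in ethanol and 9495 to 10038 CPM in O/A. KRT5, the highest of them at 5837 ± 156 CPM in ethanol and 4744 ± 154 in O/A (SD, n = 4), was downregulated (log2(FC) -0.30), and DSG3 was upregulated (0.99). Leukocyte markers summed to 1.4 to 2.4 CPM in ethanol and 2.76 to 3.28 CPM in O/A, with CD68 and ITGAM as the 2 of 7 detected and both upregulated, and PTPRC and CD3E at 1 count or fewer. Fibroblast markers (1 of 5 detected) summed to 21.3 to 26.3 CPM in ethanol and 22.1 to 24 CPM in O/A, and melanocyte markers (1 of 4) to 1.19 to 2.3 and 1.09 to 2.53 CPM. The part of these differences in the values of the 9 genes was not tested, and in bulk RNA fewer cells that express a gene and less RNA per cell cannot be told apart.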

How the data were processed

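mRNA was selected with oligo(dT) and sequenced in 4 ethanol and 4 O/A libraries, grouped by the sample labels. The submitters' processing notes name GRCh38.p13, HISAT2 2.0.1 for alignment and HTSeq 0.6.1 for counting by the authors, and the deposited counts are not normalized. The deposited FPKM values follow from the counts, the exonic size and the library total, within 0.005. The annotation release and the strand setting of the counting are not given in the sources used here. The authors' table of their own DESeq2 comparison (fold changes and p-values) was not used.

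Counts were scaled by TMM and compared with edgeR 4.0.16 (robust quasi-likelihood test, R 4.3.3) for genes that reached 10 counts in 4 or more libraries, with Benjamini-Hochberg adjustment. FPKM is used for levels between genes, and CPM for libraries. Single genes were compared by exact permutation, and count ratios are given as a description. The alternatives were DESeq2 1.42.0, median-ratio scaling, no filter, limma 3.58.1 on log2(FPKM + 0.1) and log2(FPKM + 1), a replicate block, each library left out and other fold change thresholds. The script was tested on simulated data. The genes and lists were chosen with earlier results of these data known. All 9 genes are described, and of each list the 4 largest rises and falls among called genes and a set of pathway genes are named. Neighbors, overlapping genes and cell type markers were added as context. Exons are those of GENCODE v44 and promoters those of RefSeq. Some genes are not reported here.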

Additional observations from a re-analysis of the deposited data

Results flagged for a closer look

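Of 92 groups of 4 libraries, 4 held a library whose gap to the nearest of the others passed Dixon's 95% critical value, and chance gives about 1 in 20, or 4.6 groups. IFIT1 had 28.4 CPM in O/A replicate 2 and 15.2 to 17.3 CPM in the other O/A libraries, and without that library its log2(FC) was -1.43 and still called. In ethanol replicate 2, IFIT5 had 40.4 CPM against 36.5 to 36.6 CPM in the others, and ISG20 had 7.8 CPM against 5.87 to 6.09 CPM. In O/A replicate 1, DNASE2 had 39.2 CPM against 34.2 to 35 CPM in the others.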

How the results depend on the processing

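IRF1, IFIT1, IFIT2 and IFIT3 were called as downregulated under each of the 14 alternatives that refit the data, with a log2(FC) of -0.85 to -0.56 for IRF1, -1.43 to -1.07 for IFIT1, -1.27 to -0.91 for IFIT2 and -1.40 to -1.10 for IFIT3. The number of the 9 genes downregulated ranged from 4 to 7 when 1 library was left out (7 without O/A replicate 2, which added OAS1, OAS3 and MX1). It was 5 with limma on log2(FPKM + 0.1), which added OAS3, and 3 with an absolute log2(FC) above 1, which removed IRF1. Of all 14893 genes tested, 4987 to 5114 were called in either direction when 1 library was left out (5040 without O/A replicate 2). With limma on log2(FPKM + 0.1) 5124 were called, and 797 above 1. With the replicate block the number of the 9 genes downregulated was also 5, since OAS1 was added at -0.266 (adjusted p = 0.0004). OAS3 (-0.22, adjusted p = 0.00346) and IFI6 (-0.224, adjusted p = 0.00486) passed 0.05 under the block and stayed within the fold threshold. The labels do not say that a number marks a shared batch. The study's text gives 4 independent experiments per group and does not state whether each held both conditions. Over all genes the numbers were not taken to pair the samples, since the correlation of same-numbered departures was between -0.0208 and 0.0644 and 3 of the 8 libraries correlated best with their own number. This does not settle pairing for the 9 genes. Replicate 2 was the highest library for 6 of them in ethanol and 9 in O/A, and replicate 4 the lowest for 7 in each condition. The block left the number of all genes called at 5160. The value of ISG15 turned negative in limma with a pseudocount of 0.1 (-0.0299) or 1 (-0.0281) added to FPKM and ranged from -0.0678 to 0.103 when 1 library was left out, being below 0 without ethanol replicate 3 (-0.00158), ethanol replicate 4 (-0.0395) or O/A replicate 2 (-0.0678). It was never called.

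Of the 45 other interferon-stimulated genes tested, 2 were upregulated with limma on log2(FPKM + 1) and 0 at an absolute log2(FC) above 1. The number downregulated was 13 without a fold threshold (6 were upregulated), 1 above 1, and 6 to 13 when 1 library was left out. Of all 14893 genes tested, 7999 passed in either direction without a fold threshold and 797 above 1. With limma on log2(FPKM + 1) 3923 were called, and 4987 to 5114 when 1 library was left out. Over the 6 pathway lists 77 genes were tested, and 12 (15.6%) were upregulated and 12 (15.6%) downregulated, against 15.8% and 18.9% of all genes. Without a fold threshold 28 were upregulated and 18 downregulated, where 7999 of all 14893 genes tested passed in either direction. Above 1, 2 were upregulated and 0 downregulated, where 797 of all genes tested passed. Beyond the thresholds and libraries named, the cause was not tested. Counts near 10 leave the ligand genes, CXCL10 and SOCS1 imprecise, and all p-values rest on 4 libraries a condition.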
